A study of Mus musculus with 10 samples.

Results

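The genes described here encode the machinery of MHC class II presentation, in mouse acute lymphoblastic leukaemia that grew in animals given syngeneic or allogeneic donor cells. They are H2-Aa, H2-Ab1, H2-Eb1, H2-DMa, H2-DMb1, H2-DMb2, H2-Oa, H2-Ob, Cd74 and Ciita, 10 genes chosen by name and not by their values. All probe sets that the platform annotation gives to these symbols were taken, which were 19 probe sets with 1 symbol and 3 with several, of 45101 on the array. The 19 represent 9 of the 10 genes, among 18193 genes measured in all. H2-DMb1 has no probe set of its own and is seen only through 2 probe sets that also carry the name H2-DMb2.

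Every animal was a C57BL/6 recipient that received total body irradiation and 5-fluorouracil, then donor marrow and spleen cells with C57BL/6 leukaemia mixed in. The donor was C57BL/6 for the 5 syngeneic animals and C3.SW for the 5 allogeneic animals. In both groups the leukaemia carried human p210 bcr/abl, lacked Ink4a/Arf and bore a GFP marker. It went through 3 serial transplants, with sorting after 2 to 3 weeks and transfer to newly transplanted animals, and RNA was made from GFP-sorted marrow leukaemia, 1 array per animal. The sources used here state neither the animals' ages nor how many leukaemia clones were used, nor whether animals of a group received cells from the same earlier recipient. The p-values therefore cover only variation among these 10 animals. The comparison asks whether class II gene expression differed after passage beside allogeneic donor cells. C57BL/6 and C3.SW mice are known to share their H2 haplotype and to differ at minor antigens.

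Class II molecules are pairs of an alpha and a beta chain that show peptides from endosomes to CD4+ T cells, and B-lineage cells are among the few cell types that make them constantly. The invariant chain, Cd74, fills the groove of a new molecule. The H2-M heterodimer (H2-DMa with H2-DMb1 or H2-DMb2) then removes the leftover invariant chain peptide, and H2-O (H2-Oa with H2-Ob) inhibits H2-M. Transcription of these genes needs Ciita, a coactivator with no DNA binding of its own, which is recruited by the RFX, CREB and NF-Y factors bound to the neighbouring X and Y boxes of each promoter. C57BL/6 mice have a defective H2-Ea gene and so lack surface I-E, the molecule to which the H2-Eb1 chain belongs.

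Because the promoter element through which Ciita acts is common to class II genes, the stretch that holds its letters, or their nearest counterpart in H2-DMb2, is shown for 6 members with a RefSeq promoter window. RefSeq windows on GRCm38.p6, each 300 bases long with 250 before and 50 after the gene's start, were used for 7 of the 10 genes. These genes have 8 windows, all on chr17. The search for members was set to leave out windows on a single named chromosome other than chr17. No window was used for H2-Ab1, Cd74 or Ciita, so the counts of windows do not cover these genes. Each line below gives 60 bases, 5′ to 3′ on the gene's own strand. Capitals mark the letters GATTGG, which hold the CCAAT motif in reverse as in a Y box, and GNAAC, as at the start of an X box, where it begins 28 to 33 bases before GATTGG on the same strand.
H2-Aa, chr17:34287858-34287917, minus strand: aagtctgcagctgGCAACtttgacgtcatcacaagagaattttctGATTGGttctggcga
H2-Eb1, chr17:34305762-34305821, plus strand: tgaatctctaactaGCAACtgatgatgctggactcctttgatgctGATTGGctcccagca
H2-DMb1, chr17:34153084-34153143, plus strand: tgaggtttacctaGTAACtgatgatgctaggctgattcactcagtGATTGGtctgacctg
H2-DMb2, chr17:34145113-34145172, plus strand: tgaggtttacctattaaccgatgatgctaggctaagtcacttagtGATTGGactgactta
H2-Oa, chr17:34092290-34092349, plus strand: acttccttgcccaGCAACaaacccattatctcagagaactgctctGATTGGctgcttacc
H2-Ob, chr17:34238802-34238861, plus strand: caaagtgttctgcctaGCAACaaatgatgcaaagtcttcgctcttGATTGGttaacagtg

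The spaced pair was present in 5 of the 8 windows, against 0.338% of all 32851 promoter windows of the same length searched on both strands. The range of spacing was chosen after these windows had been seen, so the contrast is a description. GATTGG in the gene's own direction was present in 7 of the 8 windows, and 16.1% of all windows hold it on either strand. GNAAC alone is common, in 84.8% of all windows. In H2-Aa, H2-DMb1 and H2-Oa the pair is spaced by 32 bases, in H2-Eb1 by 31 and in H2-Ob by 29. The windows of H2-DMb1 and H2-DMb2 are identical at 52 of 60 positions, and the differences include the GNAAC letters, which H2-DMb2 lacks at that place. Read in the gene's direction, the letters TGACGT occur in H2-Aa alone among the 6 stretches shown, and 7.51% of all windows hold them on either strand. TGATG occurs in 4 of the 6, in H2-Eb1, H2-DMb1, H2-DMb2 and H2-Ob, and in 39.3% of all windows on either strand. For both sets of letters the share of all windows covers 300 bases, so it does not compare directly with the shorter stretches shown. Both H2-DMa windows lack the pair.

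Intensities are given on the log2 scale after quantile normalisation, and a probe set counts as above background on an array when it exceeds a limit set by 27 bacterial control probe sets that were not spiked in (their 95th percentile on that array, 4.50 to 5.32). Between 11224 and 13094 genes per array were above it. Allogeneic animals 1, 3 and 4 had a raised lower quartile of deposited intensities, at 18.7 to 19.5, where the other 7 arrays had 13.8 to 14.4. The labelled cell type was checked first. Of 18 measured markers of B lymphoid progenitors, 17 were above background on all 10 arrays, and Cd24a was the brightest. Their summed signal on the log2 scale spanned 16.71 to 16.75 among syngeneic and 16.73 to 16.78 among allogeneic animals. Precision is limited throughout by having 5 arrays in each group.

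Class II genes were expressed in both groups. Of the 9 member genes, 8 were above background on all 10 arrays and the remaining gene, Ciita, on 9. No member gene passed the test: limma called 0 of 9 at an adjusted p under 0.05, where 0.506% of all genes were called higher and 0.077% lower in the allogeneic samples. At an unadjusted limma p under 0.05 there were 2 members, H2-Aa and H2-Oa, where 16.9% of all genes reached that level. Allogeneic minus syngeneic log2 differences were positive for 5 members and negative for 4, with a median of 0.20 against 0.011 over all genes. Without allogeneic animals 1, 3 and 4 they were positive for 8 members and negative for H2-DMb2, and limma again called 0. That setting, wherever it is used here, leaves only allogeneic animals 2 and 5 in the allogeneic group. Animal 5 was the highest allogeneic animal for 8 of the 9 members. Over all 10 animals, no member had groups that did not overlap, which 4.83% of all genes had.

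**Figure D1:**
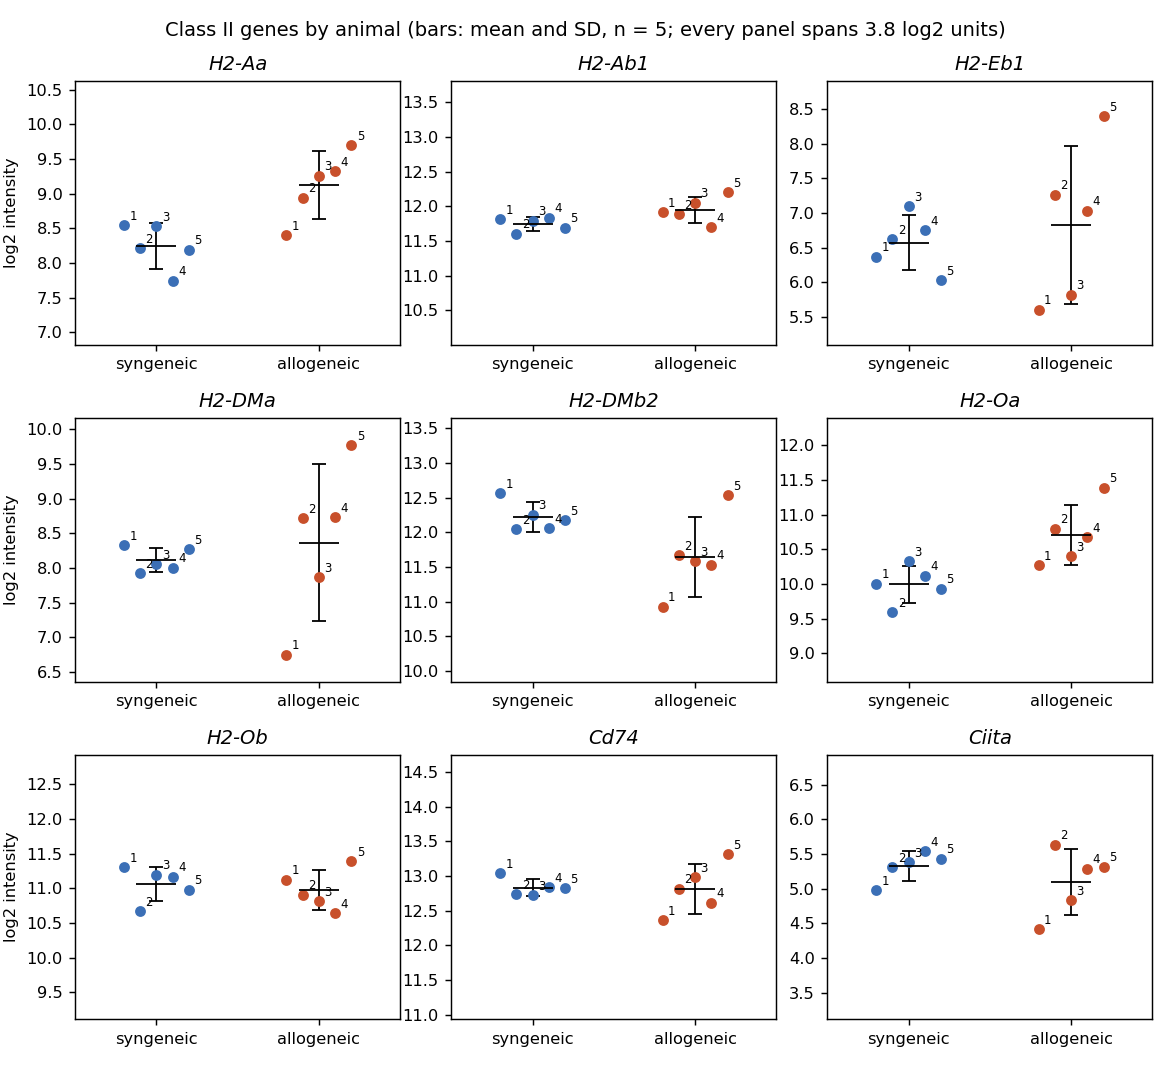
Log2 intensity of each class II gene by animal, 1 panel per gene, with syngeneic animals in blue and allogeneic animals in orange, numbered 1 to 5; bars give the mean and SD of 5 animals, and every panel spans the same number of log2 units. Allogeneic points are higher on average for H2-Aa and H2-Oa and lower for H2-DMb2, all with overlapping groups, and H2-DMa and H2-Eb1 are spread widely among the allogeneic animals.

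Ciita, the coactivator, gave a weak signal. Its brightest probe set read 4.98, 5.31, 5.38, 5.54 and 5.43 in syngeneic animals 1 to 5 and 4.41, 5.63, 4.83, 5.29 and 5.32 in allogeneic animals 1 to 5. Allogeneic animal 1 was the lowest and did not exceed background, and allogeneic animal 2 was the highest of all 10. Means were 5.33 ± 0.21 and 5.10 ± 0.48 (SD, n = 5 each), and the difference of -0.23 on the log2 scale (95% interval -0.73 to 0.27) did not pass (limma adjusted p = 0.64). It was -0.06 without allogeneic animal 1, -0.064 without further normalisation, -0.02 with array weights and 0.15 without allogeneic animals 1, 3 and 4, so no direction is given for Ciita. The other Ciita probe sets were weaker. The second was above background on 5 arrays, with a difference of 0.17, and the third on none.

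The classical chains H2-Aa and H2-Ab1 form I-A, the class II molecule that C57BL/6 cells display. H2-Aa, the alpha chain, read 8.55, 8.21, 8.53, 7.74 and 8.19 in syngeneic animals 1 to 5 and 8.40, 8.94, 9.26, 9.32 and 9.70 in allogeneic animals 1 to 5. Allogeneic animals 2 to 5 lay above every syngeneic animal, and allogeneic animal 1 lay within the syngeneic range. Means were 8.25 ± 0.33 and 9.12 ± 0.49 (SD, n = 5 each), a log2 difference of 0.88 (SE 0.25, 95% interval 0.32 to 1.43), or 1.84-fold. It did not pass after correction (limma adjusted p = 0.144). Without allogeneic animal 1 the difference was 1.06 (SE 0.21) and passed with a limma adjusted p of 0.0331, the lowest over the alternatives. The highest, 0.541, came with the mean over its 4 probe sets, where the difference was 0.44.

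H2-Ab1, the beta chain, was steadier, with syngeneic animals 1 to 5 at 11.81, 11.61, 11.79, 11.84 and 11.69 and allogeneic animals 1 to 5 at 11.91, 11.88, 12.05, 11.70 and 12.21. In the allogeneic group 4 of 5 animals lay above the highest syngeneic value, and animal 4 lay within the syngeneic range. Its log2 difference was 0.20 (SE 0.12, 95% interval -0.06 to 0.47; limma adjusted p = 0.418), which the test did not separate from the spread between animals. H2-Eb1, the I-E beta chain, read 6.37, 6.62, 7.09, 6.75 and 6.03 in syngeneic animals and 5.61, 7.26, 5.82, 7.03 and 8.40 in allogeneic animals, in the same order. Allogeneic animals 1 and 3 lay below all syngeneic values and animals 2 and 5 above them. The log2 difference of 0.25 (SE 0.49, 95% interval -0.85 to 1.35; limma adjusted p = 0.836) became -0.14 without allogeneic animal 5 and 1.26 (SE 0.38, limma adjusted p = 0.0977) without allogeneic animals 1, 3 and 4, the animals with a raised lower quartile.

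The other class II genes of the locus that were followed gave no call. H2-Eb2, a beta chain gene beside H2-Eb1, had means of 9.09 ± 0.33 in syngeneic and 9.39 ± 0.26 in allogeneic samples (SD, n = 5 each), a log2 difference of 0.30 that did not pass (limma adjusted p = 0.444). H2-Ea, the I-E alpha chain gene that is defective in this strain, exceeded background on 5 of 10 arrays, in 2 syngeneic and 3 allogeneic animals, with a log2 difference of -0.08 (limma adjusted p = 0.974). Its allogeneic values ran from 1.87 in animal 3 to 7.40 in animal 5, and its syngeneic values from 3.98 to 5.64.

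Cd74, the invariant chain, had deposited intensities of 4939.5 to 10397. On the log2 scale it read 13.04, 12.73, 12.72, 12.84 and 12.83 in syngeneic animals 1 to 5 and 12.37, 12.81, 12.98, 12.61 and 13.31 in allogeneic animals 1 to 5. Allogeneic animals lay on both sides of the syngeneic ones, with animal 1 lowest and animal 5 highest of all 10. Means were 12.83 ± 0.13 and 12.82 ± 0.36 (SD, n = 5 each), and the difference was -0.014 (95% interval -0.40 to 0.37; limma adjusted p = 0.976), and 0.23 without allogeneic animals 1, 3 and 4.

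Of the H2-M chains, H2-DMa had the most unequal spread. The alpha chain read 8.33, 7.93, 8.06, 8.004 and 8.27 in syngeneic animals 1 to 5, a range of 0.41, and 6.75, 8.71, 7.86, 8.73 and 9.77 in allogeneic animals 1 to 5, a range of 3.03. Allogeneic animals 1 and 3 lay below every syngeneic animal and 2, 4 and 5 above. The SD was 0.17 in syngeneic and 1.13 in allogeneic samples, and the log2 difference of 0.25 (SE 0.47, 95% interval -0.79 to 1.29; limma adjusted p = 0.827) became -0.10 without allogeneic animal 5. Without allogeneic animals 1, 3 and 4 it was 1.13 (SE 0.28, limma adjusted p = 0.0692).

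H2-DMb2, a beta chain of H2-M, was the member with the largest negative difference. It read 12.56, 12.04, 12.25, 12.05 and 12.17 in syngeneic animals 1 to 5 and 10.93, 11.67, 11.58, 11.53 and 12.54 in allogeneic animals 1 to 5. Allogeneic animals 1 to 4 lay below every syngeneic animal, and animal 5 lay just under the highest of them. Means were 12.22 ± 0.21 and 11.65 ± 0.58 (SD, n = 5 each), a log2 difference of -0.57 (SE 0.26, 95% interval -1.15 to 0.013; limma adjusted p = 0.306). Without allogeneic animals 1, 3 and 4, which leaves allogeneic animals 2 and 5, it was -0.11 (SE 0.26, limma adjusted p = 0.821). Animals 2 and 5 stood at -0.54 and 0.32 from the syngeneic mean. Without allogeneic animal 5 alone the difference was -0.79 (SE 0.185, limma adjusted p = 0.109). The 2 probe sets named for both beta chain genes gave differences of -0.40 (SE 0.38) and -0.39 (SE 0.43). As H2-DMb1 and H2-DMb2 are closely similar genes, the shared probe sets cannot tell which of them they report.

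H2-O, the inhibitor of H2-M, has chains that gave unlike differences. H2-Oa, the alpha chain, read 10.002, 9.59, 10.33, 10.12 and 9.93 in syngeneic animals 1 to 5 and 10.27, 10.79, 10.40, 10.67 and 11.39 in allogeneic animals 1 to 5. Allogeneic animals 2 to 5 lay above every syngeneic animal, and animal 1 lay between the highest syngeneic values. Means were 9.99 ± 0.27 and 10.70 ± 0.44 (SD, n = 5 each), a log2 difference of 0.71 (SE 0.22, 95% interval 0.22 to 1.21), or 1.64-fold (limma adjusted p = 0.167). It was 1.10 (SE 0.24, limma adjusted p = 0.0557) without allogeneic animals 1, 3 and 4, where the alternatives gave adjusted p-values of 0.0542 to 0.306. H2-Ob, the beta chain, read 11.31, 10.67, 11.20, 11.17 and 10.98 in syngeneic animals and 11.13, 10.91, 10.82, 10.64 and 11.39 in allogeneic animals, in the same order. The groups overlapped over most of their range, and the log2 difference was -0.087 (SE 0.17, 95% interval -0.48 to 0.30; limma adjusted p = 0.841), and 0.086 without allogeneic animals 1, 3 and 4. A probe set named for H2-Ob and Gm20506 together gave 0.34 (SE 0.25), opposite in sign, with a limma adjusted p of 0.531.

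**Figure D2:**
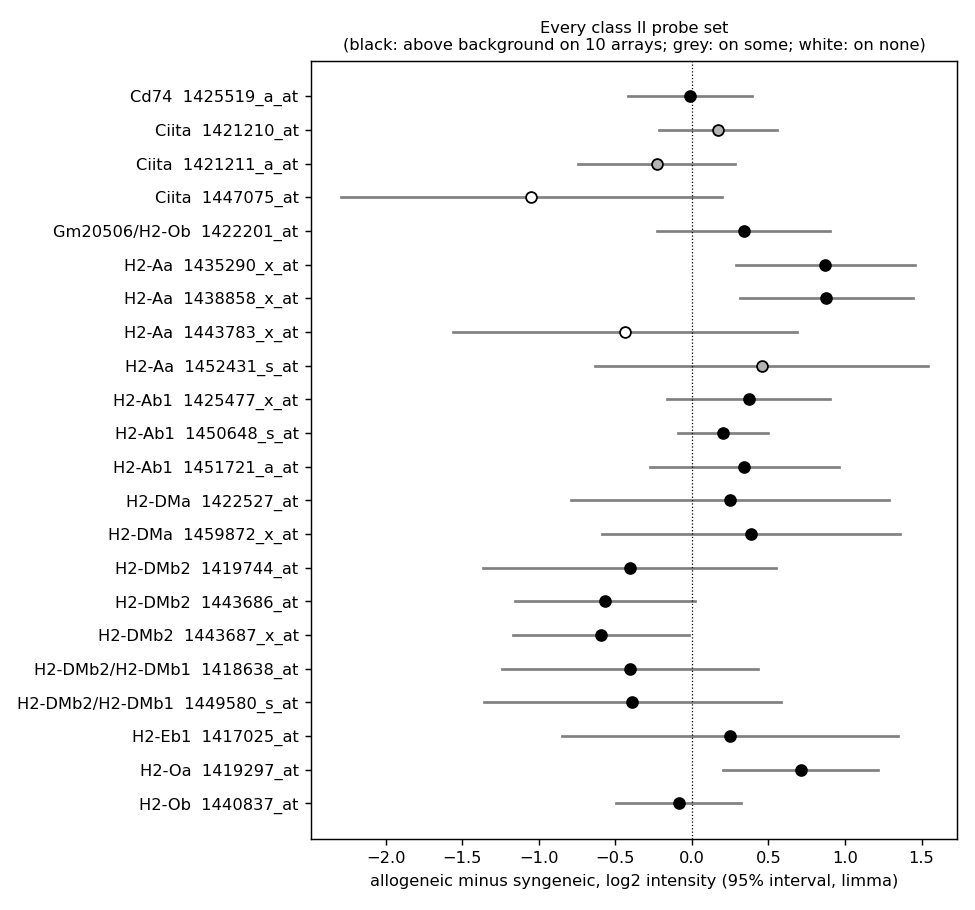
Allogeneic minus syngeneic log2 difference of each of the 22 class II probe sets with its 95% limma interval; filled points were above background on 10 arrays, grey points on some and white points on none. The intervals of 2 H2-Aa probe sets and of H2-Oa lie above 0 and that of 1 H2-DMb2 probe set lies below 0, and none passed after correction.

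Probe sets of a gene agreed in sign for H2-Ab1, H2-DMa and H2-DMb2 and not for H2-Aa and Ciita. In the fit over all 45037 probe sets, limma called 0 of the 19 member probe sets with 1 symbol and 0 of the 3 with several, where 0.411% of all probe sets were called. None of the 22 had groups that did not overlap, against 4.74% of all probe sets. There were 4 with an unadjusted limma p under 0.05, which were the 2 brighter of the 4 H2-Aa probe sets, with differences of 0.88 and 0.87, that of H2-Oa and 1 of H2-DMb2. The third H2-Aa probe set by signal gave 0.46 (SE 0.49), with allogeneic animal 1 at 4.46 and animal 5 at 7.61 and the syngeneic animals between 5.69 and 6.08. The fourth gave -0.44 and was above background on no array. The weaker H2-Ab1 probe sets gave 0.37 and 0.34, the second of H2-DMa 0.39, and those of H2-DMb2 -0.59 and -0.41. For H2-DMb2 it was the second probe set, at -0.59, that reached that level before correction (limma adjusted p = 0.282).

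H2-Oa and H2-DMb2 had group differences of opposite sign, as noticed after their values had been seen. H2-Oa minus H2-DMb2, a log2 difference between probe sets on the same array, was -2.56, -2.45, -1.93, -1.93 and -2.24 in syngeneic animals 1 to 5 and -0.66, -0.88, -1.18, -0.86 and -1.15 in allogeneic animals 1 to 5. Every allogeneic animal lay above every syngeneic one, including allogeneic animals 1 and 5, which were at opposite ends for H2-DMb2 itself. Means were -2.22 ± 0.29 and -0.95 ± 0.22 (SD, n = 5 each), so the inhibitor's alpha chain signal was 1.28 log2 units higher relative to the H2-DMb2 signal in the allogeneic samples. The size of each value depends on the 2 probe sets and does not compare the genes' levels, and the difference between the groups shows unequal change and not which gene changed. No test is given, because the pair was picked from its values.

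The separation was seen with most other H2-DMb2 probe sets. With the second H2-DMb2 probe set by signal in its place the difference was 1.30, with the third 1.12 and with the brighter of the 2 probe sets shared with H2-DMb1 1.11, all without overlap. The second read close to the first on every array, as with 10.95 against 10.93 in allogeneic animal 1, so it is not a separate check. With the dimmer shared probe set it was 1.10 and the groups overlapped, as allogeneic animal 5 stood at 1.25 and syngeneic animal 3 at 1.30. Leaving out any single animal gave 1.19 to 1.35, and the deposited intensities without further normalisation gave 1.33. Leaving out an animal cannot make separated groups overlap. All these values come from the arrays on which the pair was picked, so they describe the separation and do not test it.

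**Figure D3:**
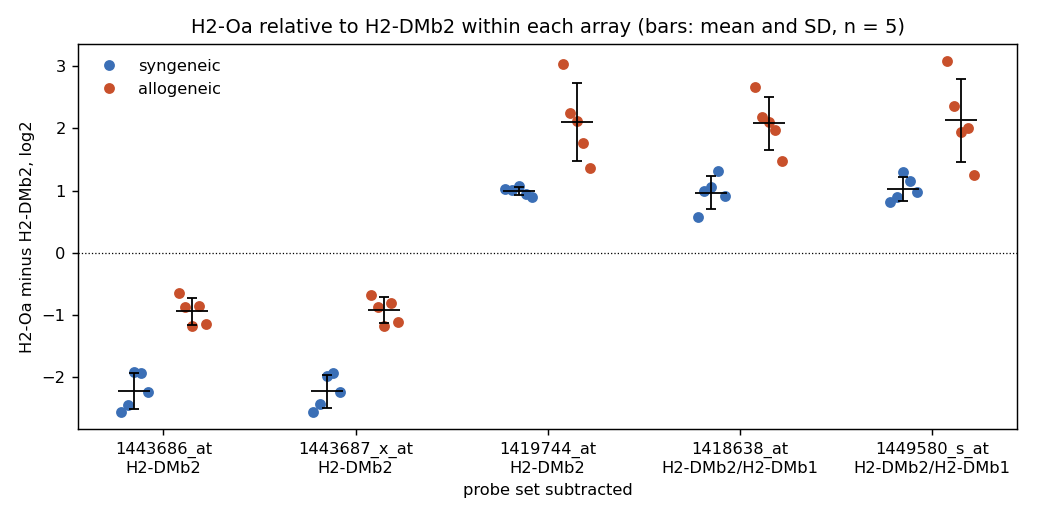
Log2 intensity of H2-Oa minus that of each H2-DMb2 probe set, by animal, with the mean and SD of 5 animals as bars; blue points are syngeneic and orange points allogeneic animals. Allogeneic animals stand above syngeneic animals without overlap for 4 of the 5 probe sets and overlap for the last of them; only the distance between the groups is comparable from one probe set to the next.

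Of the 36 pairs of member genes, 5 (13.9%) had within-array differences that did not overlap between the groups, where 6.56% of all pairs of genes above background on every array did. The member pairs include those with Ciita, which was not above background on every array, so the 2 shares are not over like sets. Each of the 5 pairs holds H2-Aa or H2-Oa, the members with the largest positive differences, and the pairs share genes and are not independent. H2-DMb2 minus H2-Aa went from 3.97 ± 0.22 in syngeneic to 2.53 ± 0.26 in allogeneic samples (SD, n = 5 each), lower by 1.45 log2 units (-1.45). Cd74 minus H2-Aa differed by -0.89 and Ciita minus H2-Oa by -0.94. The chains of H2-O were among these pairs too, as H2-Ob minus H2-Oa went from a mean of 1.07 to 0.27, a difference of -0.80.

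Spread between animals was larger in the allogeneic group for all 9 member genes with a probe set of their own, with a median SD of 0.21 in syngeneic and 0.48 in allogeneic samples. This was also the case for 85.7% of the 10455 genes above background on every array, whose median SDs were 0.17 and 0.31. The allogeneic SD exceeded the syngeneic SD by more than 2 times for 5 of the 9 members, H2-Eb1, H2-DMa, H2-DMb2, Cd74 and Ciita, against 42.2% of those genes. Without Ciita, the 8 members above background on every array all had the larger allogeneic SD, and 4 of them exceeded 2 times. The ratio was 6.49 for H2-DMa and 1.17 for H2-Ob, the ends of the members' range.

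The same animals set the ends of most members' allogeneic range. Allogeneic animal 5 was the highest of its group for 8 of the 9 members, all but Ciita, where 27.3% of all genes above background on every array had that animal highest. Allogeneic animal 1 was the lowest for 7 of the 9, all but H2-Ab1 and H2-Ob, against 33.8% of those genes. Both held for 6 members, against 10.9%. Over the 8 members that were themselves above background on every array, these 3 counts were 8, 6 and 6. The members' median deviation from the syngeneic mean was -0.47 in allogeneic animal 1, 0.30 in animal 2, -0.25 in animal 3, -0.04 in animal 4 and 0.48 in animal 5, and it lay between -0.14 and 0.21 in the syngeneic animals. The allogeneic animals with negative medians, 1, 3 and 4, are the 3 whose arrays have the raised lower quartile, and those with positive medians, 2 and 5, are the 2 whose arrays do not. The median of animal 4, at -0.04, lay within the syngeneic range, so its sign carries little weight. The part of the array in these values was not tested. Marker lists were set beside these values. The median deviation of 18 macrophage and monocyte markers was -0.44 in allogeneic animal 1, 0.27 in animal 2, -0.07 in animal 3, 0.37 in animal 4 and 0.32 in animal 5. Mature B cell markers, 12 genes, stood at -0.35, -0.14, -0.16, -0.33 and 0.08 in allogeneic animals 1 to 5, with animal 1 lowest and animal 5 highest as for most members but with animals 2 and 4 also below the syngeneic mean. Granulocyte markers, 9 genes, stood at -0.57, 0.53, 0.18, 0.74 and 0.0057 in the same animals, lowest in animal 1 and highest in animal 4. Dendritic cell markers, 13 genes, stood at 0.31, 0.60, 0.29, 0.52 and 0.75, all above the syngeneic mean. The part of such cells in the members' spread was not tested.

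**Figure D4:**
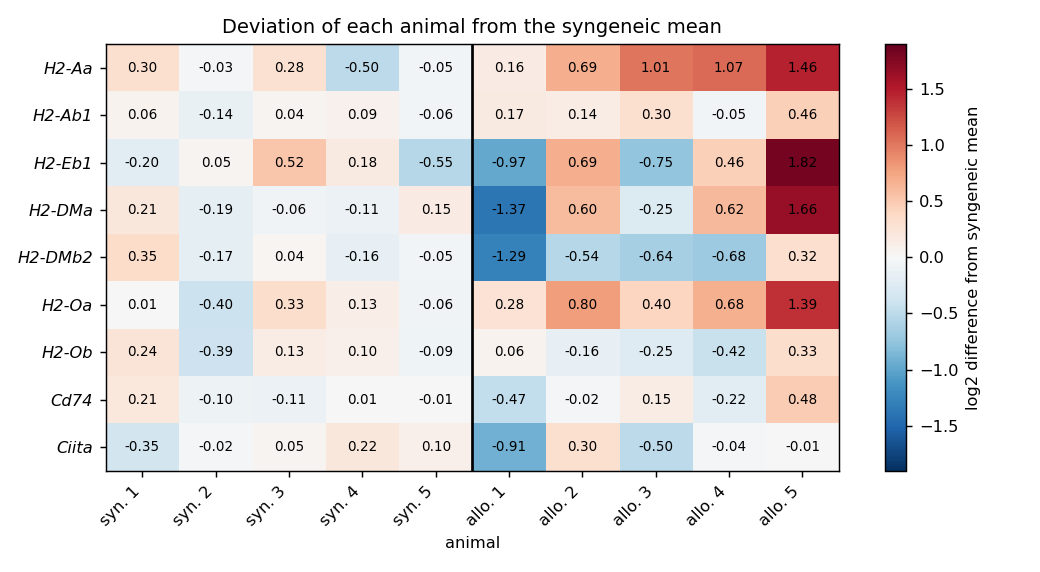
Deviation of each animal's log2 intensity from the syngeneic mean for the 9 class II genes (rows) in 10 animals (columns, syngeneic left and allogeneic right of the line); red is above and blue below that mean. Allogeneic animal 5 is positive for all genes but Ciita, and allogeneic animal 1 is negative for H2-Eb1, H2-DMa, H2-DMb2, Cd74 and Ciita.

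Across animals, no relation was detected between Ciita and H2-Ab1, its classical target. Pearson's r was -0.255 (permutation p = 0.476) and Spearman's rho -0.20 (permutation p = 0.584) over 10 animals, both 2-sided with 100000 resamples, for the only relation tested. Without allogeneic animals 1 and 3, the animals farthest from the Ciita median, r was 0.073 (permutation p = 0.851). Ciita lies close to background, which limits what this relation can show. Among the other members, H2-DMa correlated with H2-Eb1 at r = 0.86 and H2-Oa with H2-Aa at r = 0.82 over the 10 animals. H2-Oa with H2-DMb2 stood at r = 0.0036, and all these values share arrays and normalisation.

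Genes whose values most resembled the mean of H2-Aa, H2-Ab1, H2-Eb1 and Cd74 over the 10 animals were sought among 10447 genes above background on every array. Ccbe1, a secreted protein of lymphatic vessel growth, stood first at r = 0.955. Nsdhl, a cholesterol synthesis enzyme, followed at 0.948, then Neurl2 at 0.945, Rsu1 at 0.941 and Guca1b at 0.939. With the group means removed, the values were 0.951, 0.933, 0.929, 0.927 and 0.923. Each of the 5 was highest in allogeneic animal 5, and none passed the test between groups.

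Around the members, 61 other genes of class II control, processing and T cell contact were measured, of which 2 were called higher and 0 lower. Irf1, an interferon-induced transcription factor that acts at a Ciita promoter, rose. It read 9.83, 10.26, 10.28, 10.35 and 10.16 in syngeneic animals 1 to 5 and 12.20, 11.84, 11.62, 11.82 and 11.94 in allogeneic animals 1 to 5. The groups were far apart, and allogeneic animal 1, lowest for most members, was the highest for Irf1. Means were 10.17 ± 0.20 and 11.88 ± 0.21 (SD, n = 5 each), a log2 difference of 1.71 (SE 0.14, limma adjusted p = 0.000515).

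The remaining signals upstream of Ciita did not pass. Of 14 measured, Irf1 was higher, 0 were lower, and the median difference was 0.05. Smad3, which carries TGF-beta signals, had a log2 difference of -0.57 (SE 0.14, limma adjusted p = 0.0968) with groups that did not overlap. Socs1, an inhibitor of interferon signalling, had 0.78 (limma adjusted p = 0.226), and Jak1, a kinase of the interferon receptors, -0.27 (limma adjusted p = 0.266).

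Factors that bind the class II promoter, or act with those that do, gave no call among 11 measured, with a median log2 difference of -0.09. Usf1 had 0.54 (limma adjusted p = 0.228) and Creb1, the factor of the X2 element, -0.53 (limma adjusted p = 0.302). Nfyb, a subunit of the Y box factor, had -0.17, and Crebbp, a histone acetyltransferase, -0.15. All 11 were above background on every array.

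Endosomal processing genes gave no call among 12, with a median of 0.05. Ctsd, an aspartic protease of lysosomes, had a log2 difference of 0.48 (limma adjusted p = 0.22), and Ctss, the protease that trims the invariant chain in B cells, 0.18 (limma adjusted p = 0.361). Ctsb had 0.15 and Lgmn, an asparagine-specific protease, -0.29. Genes of class II trafficking and turnover gave no call among 11 either, with a median of 0.09. Cd82, a tetraspanin of class II compartments, had 0.45 (limma adjusted p = 0.184). Marchf1, the ligase that sends surface class II to degradation, had -0.52 (limma adjusted p = 0.488), with Tfeb at 0.27 and Lamp1 at 0.11.

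Beside class II at the T cell contact, Cd86 rose. This ligand of CD28 read 6.62, 6.36, 6.46, 6.92 and 6.65 in syngeneic animals 1 to 5 and 7.54, 8.004, 7.60, 7.61 and 8.12 in allogeneic animals 1 to 5. The groups did not overlap, and the log2 difference was 1.17 (SE 0.16, limma adjusted p = 0.012). Of the 11 measured genes of this list it was the only call, and the median difference was 0.22. Cd40, whose signal raises class II and costimulation in B cells, had 1.17 with an SE of 0.31 and did not pass (limma adjusted p = 0.122). Without allogeneic animal 1 it was 1.38 and passed with a limma adjusted p of 0.0328, where the alternatives ran up to 0.25. Cd274, the PD-1 ligand, had 0.58 (limma adjusted p = 0.435), and Tnfsf4 was above background on no array.

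**Figure D5:**
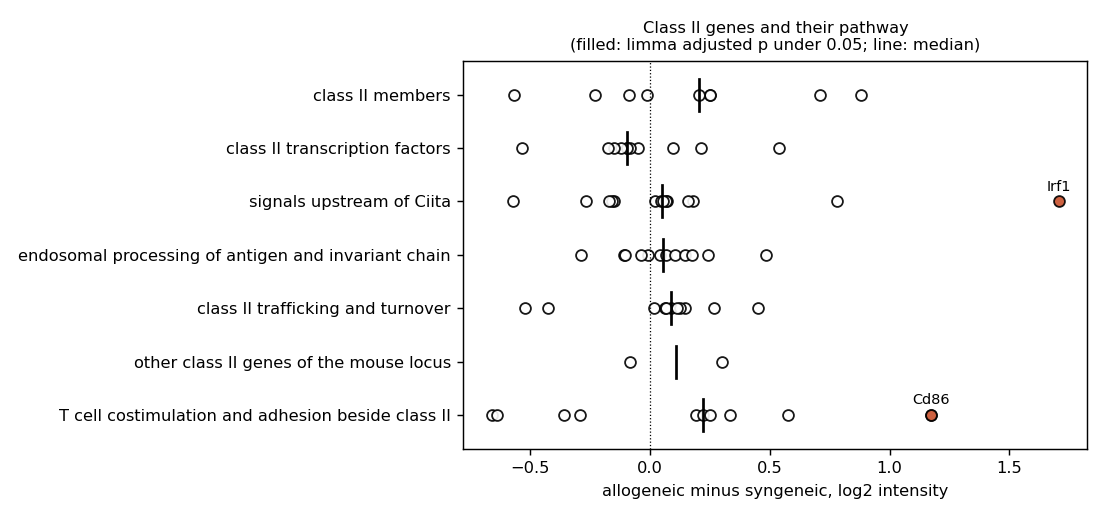
Allogeneic minus syngeneic log2 difference of the 9 class II genes (top row) and of 61 other genes in 6 lists, 1 point per gene, with a line at each list's median; filled points passed at a limma adjusted p under 0.05. Irf1 at 1.71 and Cd86 at 1.17 are the filled points, and the members run from -0.57 to 0.88.

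Other cells that carry class II, or that a sort could hold, were followed through marker lists, and fewer cells of a type and less RNA per cell cannot be told apart in these bulk samples. Dendritic cell markers had 13 measured genes, of which 4 were above background on every array and 3, Itgax, Cd209a and Batf3, on none. Their summed log2 signal spanned 10.49 to 11.02 among syngeneic and 11.38 to 11.99 among allogeneic animals, and the median difference was 0.48. Bst2, the brightest of them, was the only call at 1.37 (SE 0.18, limma adjusted p = 0.0096), and it is also an interferon-induced gene. Macrophage and monocyte markers had 18 measured genes with 0 calls and a median difference of -0.08, of which Cx3cr1, Itgam and Cd14 were above background on no array. Their summed signal spanned 13.28 to 13.58 among syngeneic and 13.71 to 13.88 among allogeneic animals, with Fcgr3 the brightest at a log2 difference of 0.21. Only 8 of the 18 had a positive difference. Mpeg1, a bright marker named after its values were seen, had 0.68 (limma adjusted p = 0.182). A summed signal follows mostly its brightest genes, Bst2 in the first list and Fcgr3 and Mpeg1 in the second, and does not stand for the list as a whole. The summed signals of both lists were higher in the allogeneic group, as were the means of H2-Aa and H2-Oa. The part of such cells in the values of H2-Aa and H2-Oa was not tested.

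Mature B cell markers, which belong to cells with constant class II expression, had 0 calls among 12, with a median difference of -0.18 and a summed log2 signal of 15.29 to 15.42 among syngeneic and 15.13 to 15.44 among allogeneic animals (Cd79b the brightest). T cell markers had 0 calls among 11, a median of 0.14 and sums of 12.39 to 12.70 and 12.49 to 12.78, with Cd2 the brightest and 2 genes above background on no array. Granulocyte markers had 0 calls among 9, a median of 0.17 and sums of 10.91 to 12.23 and 10.39 to 12.90, with S100a8 the brightest. Stromal and endothelial markers had 0 calls among 14, a median of 0.36 and sums of 10.20 to 10.64 and 10.62 to 11.05, with Eng the brightest and 5 genes above background on no array. B lymphoid progenitor markers had 0 calls among 18 and a median of 0.02.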

How the data were processed

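Sorted leukaemia from 10 animals was hybridised to 1 Affymetrix array each. The deposited values are linear intensities, 1 for each probe set on each array. The sources used here do not say how the authors summarised, scaled or filtered them. Log2 intensities were quantile normalised and compared with limma 3.58.1 (lmFit, eBayes; R 4.3.3, statmod 1.5.0), without filters or covariates, over 18193 genes (the probe set of highest mean per gene) or 45037 probe sets, with Benjamini-Hochberg adjustment over all and a threshold of 0.05. Symbols came from the platform annotation, updated by gene identifier through RefSeq for 34741 probe sets, with C2ta read as Ciita. Named were every member and probe set, up to 4 genes with the smallest p and every called gene per pathway list, 5 genes by likeness, and the brightest marker per cell type list. The pairs of members and the markers named as below background were chosen after their values were seen. Members and lists were chosen with earlier results of these data known. The fit was tested on simulated data in which each gene had the same spread in both groups. That test does not cover the larger allogeneic spread of these data. Alternatives covered normalisation, pseudocount, filters, probe set choice, eBayes settings, array weights, a replicate block and left-out animals.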

Additional observations from a re-analysis of the deposited data

Results flagged for a closer look

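Among 44 groups of 5 animals, 1 held an animal far from the others, where chance gives about 1 in 20. For the dimmest of the 3 Ciita probe sets, allogeneic animal 2 stood at 0.46 on the log2 scale and the other 4 allogeneic animals at 0. All of these lie below the background limit.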

How the results depend on the processing

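The number of member genes called was 0 under each alternative but 1. Leaving out single animals gave 0 to 1, where the 1 was H2-Aa without allogeneic animal 1, and 0 to 2 member probe sets, both of H2-Aa. The 2 other pathway genes called became 4 with array weights, 4 without allogeneic animals 1, 3 and 4, and 2 to 3 on leaving out single animals. With the animal number as a replicate block they became 0, with limma adjusted p-values of 0.0619 for Irf1 (alternatives from 7.33e-06) and 0.131 for Cd86 (from 0.00217), and calls over all genes went from 106 to 14. Same-numbered animals correlated at -0.21 to 0.35, so the numbers were not taken to pair samples. Calls over all genes reached 720 with array weights, 658 without allogeneic animals 1, 3 and 4, 636 without allogeneic animal 1, 307 with a trended robust prior, 307 and 269 with filters and 251 with a pseudocount of 16, and were 55 at fewest on leaving out single animals. Without allogeneic animal 5, H2-Eb1 was -0.14 and H2-DMa -0.10, where leaving out other single animals gave up to 0.55 and 0.65. Without allogeneic animals 1, 3 and 4, H2-Ob was 0.086, Cd74 0.23 and Ciita 0.15, opposite in sign to their values over all animals. In the same setting H2-Eb1 was 1.26, H2-DMa 1.13, H2-Oa 1.10, H2-Aa 1.08 and H2-Ab1 0.30, all larger, and H2-DMb2 was -0.11. These values rest on allogeneic animals 2 and 5 alone for the allogeneic group. Cd74 ran from -0.14 to 0.099 on leaving out single animals and was 0.038, 0.099 and 0.037 without syngeneic animal 1, allogeneic animal 1 and allogeneic animal 4. For Ciita against H2-Ab1, r was 0.0028 on deposited values and 0.073 without the 2 farthest animals, and -0.46 to -0.13 on leaving out single animals. Smad3 passed under 4 alternatives and Cd40 under 2. The cause of these shifts was not tested. Ciita and H2-Eb1 have no value where the lower 50% of genes were left out. Signal near background limits Ciita and H2-Ea.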
